A study of Mus musculus with 28 samples.

Results

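The TGF-beta and BMP superfamily was taken as every assay of the TaqMan OpenArray Mouse Inflammation Panel whose gene symbol starts with Tgfb, Bmp, Gdf, Inha, Inhb, Acvr, Ltbp or Grem. This gave 37 of 648 assays, for 31 of 584 genes. The rule reads only the symbol and no measured value. It finds 2 TGF-beta ligands (Tgfb1, Tgfb2), 21 assays for 17 BMP and GDF ligand genes, 3 activin and inhibin subunits (Inha, Inhba, Inhbb), 6 assays for 5 receptor genes (Acvr1, Acvr2b, Acvrl1, Bmpr1b, Tgfbr1), 2 assays for the latency binding protein gene Ltbp4, and the antagonist Grem1. Bmp1 is named like a ligand but encodes a secreted metalloprotease that processes procollagen, and it was kept apart from the ligands.

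Expression was measured by RT-qPCR in porous polycaprolactone scaffolds implanted in 28 female BALB/c mice, in which infiltrating host cells form a tissue that the labels call a synthetic niche. 14 mice were healthy controls and 14 were tumor-bearing after inoculation with 4T1-luc2-tdTomato cells, a BALB/c mammary carcinoma line carrying reporter genes. Scaffolds were taken on day 7 (3 healthy and 3 tumor-bearing), day 14 (8 and 8) and day 21 (3 and 3) after inoculation, 1 scaffold sample per mouse, to follow the niche during the course of the disease. The labels name the tumor line for the healthy mice as well, so groups were formed from the condition at the time of analysis; all mice carry the implant, and no mouse without one is in the comparison. The samples were run on 7 physical panels, called A to G here. Panel D holds only 4 day 14 healthy samples and panel G only 4 day 14 tumor-bearing samples, and the other 5 hold both conditions.

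Ligands of this superfamily are secreted as dimers and bind a complex of type I and type II serine/threonine kinase receptors, which phosphorylate Smad transcription factors. TGF-beta ligands are stored in the matrix in a latent form bound to LTBP proteins and have to be activated, whereas BMP activity is held down by extracellular antagonists. In wounds and around implants, TGF-beta is known for driving fibroblast matrix production and for restraining inflammatory cells. Activins, built from inhibin beta subunits, are released by activated myeloid and stromal cells.

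By their number of missing reactions, 3 samples stood apart. Healthy replicate 13, healthy replicate 14 and tumor-bearing replicate 21, all of day 14, lacked a quantification cycle (Cq, the number of amplification cycles needed to reach the detection threshold) for 173, 113 and 159 of 648 assays, against 61 to 88 in the other samples. The loss was not restricted to rare transcripts: of the 300 assays with a median Cq under 22, these samples lacked 54, 30 and 41, and the others 1 to 11. Results are therefore also given without these 3 samples. Across the 37 assays, 127 of 1036 reactions had no Cq. Levels below are log2 of the deposited normalized ratio, so that a step of 1 is a doubling, and more negative values mean less transcript relative to the reference genes. Levels of different assays depend on each assay's efficiency, so differences in level between genes were not interpreted. Median Cq is used below only as a rough guide to abundance, with the same limit.

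Of the 37 assays, 33 could be tested. The other 4 were ligands with few or no values. Gdf2, which encodes BMP9, had no Cq in any of 28 samples, Bmp8b had one in 4, the heart ligand Bmp10 in 6 and the joint ligand Gdf5 in 8. The 6 Bmp10 values were split between 3 healthy and 3 tumor-bearing mice, all of day 14. The other 33 assays had a value in at least 50% of the samples of all 6 groups, so none of them was tested on the strength of 1 group alone, and 14 of the 33 had a value in all 28 samples. Detection itself was compared between 14 healthy and 14 tumor-bearing mice with Fisher's exact test (two-sided). It covered the 22 members that were neither always nor never detected. Of these, 0 of 22 differed, with or without adjustment, where 1 of 327 assays (0.306%) did at an unadjusted p under 0.05 and 0 (0%) after adjustment. Apart from Bmp10 and Gdf5, these members had, or lacked, a Cq in too few mice to reach p under 0.05 in this test. For them the outcome was fixed by the counts and does not show equal detection.

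The spread of values within a group was wider at a later median Cq. Each mouse has 1 value per assay, so measurement noise and differences between mice cannot be told apart in this spread. Assays of the same gene also differed within a mouse, with an SD of the difference of 0.81 to 1.20 for Bmp7. Among the 9 members with a median Cq under 22 the median within-group SD was 0.30 on the log2 scale, it was 0.546 among the 12 members between 22 and 26, and 0.813 among the 12 members at 26 or later. The same medians over all tested assays were 0.325, 0.507 and 0.941. The receptors Acvrl1, Acvr1 and Tgfbr1, the ligand Tgfb1, Bmp1 and Ltbp4 fall in the first class, and most BMP ligands fall in the last. The plot of spread against Cq shows Bmp7 and Bmp5 as the most variable members and Acvrl1 as the least variable.

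**Figure D1:**
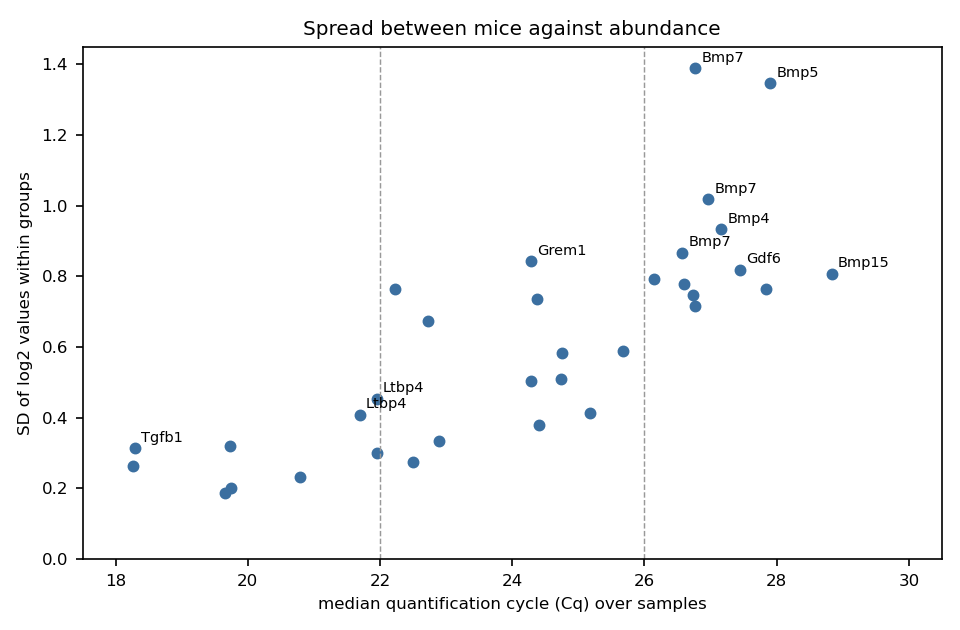
Spread of values within groups, measurement noise included, against median Cq for the 33 tested superfamily assays. The x axis is the median raw Cq over samples (later means less transcript), the y axis the SD of log2 values within the 6 groups, and the dashed lines at 22 and 26 separate the 3 classes, whose median SDs are 0.30, 0.546 and 0.813.

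On day 14, 2 of 33 members passed the threshold between tumor-bearing and healthy mice (limma, Benjamini-Hochberg adjusted p under 0.05 over all assays tested), and both were lower with tumor. They were Bmp15, a BMP ligand known from the oocyte, and Ltbp4, which binds latent TGF-beta and helps assemble elastic fibers. Over the whole panel 14 of 588 assays passed, or 2.38%, and 4 of 588 passed as lower, or 0.68%. At an unadjusted p under 0.05 there were 5 of 33 members, against 10.5% of all assays. Groups without any overlap were seen for 0 of 33 members and 0.68% of all assays. In bulk tissue of this kind, fewer cells of a type and less RNA per cell cannot be told apart.

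Bmp15 lay between -10.02 and -8.00 in the 6 day 14 healthy mice with a value, with a median of -9.70, and between -13.24 and -10.01 in the 8 tumor-bearing mice, with a median of -11.10. The groups overlapped by 1 mouse: 7 of 8 tumor-bearing values were below every healthy value, and the exception was tumor-bearing replicate 21, 1 of the 3 samples with many missing reactions. The difference was -1.90 ± 0.42 (SE; fold 0.268, 95% interval 0.145 to 0.495, adjusted p = 0.0170 by limma). Bmp15 was a rare transcript, with a median Cq of 28.83, and had no Cq in healthy replicates 7 and 9. It was the latest member tested.

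The size of the Bmp15 difference varied with the panels included, and an effect of panel placement was not tested. In the panels with both conditions healthy mice averaged -9.70 ± 0.27 (SD, n = 4) and mice with tumor -10.99 ± 0.84 (SD, n = 4), and all 4 tumor-bearing mice were below the healthy mouse on their own panel, by 0.31 to 2.33. On panels D and G, which hold 1 condition each, the means were -8.85 (2 healthy values) and -11.76 ± 1.04 (SD, n = 4). Without panels D and G the difference was -1.29 (adjusted p = 0.197 by limma), with the panel as a fixed block -1.29 (adjusted p = 0.423), and it passed in 15 of the 16 models that left out 1 day 14 mouse, the exception being without healthy replicate 11 (-1.85, adjusted p = 0.0507). In another setting each missing reaction took the largest Cq of the panel (39.7) in place of being left out, and Cq was centred on the sample median. The Bmp15 estimate then turned to 0.59, with 2 of the 8 healthy mice at the filled value.

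Ltbp4 was measured by a pair of assays. In the first (Mm00723631_m1) the 8 day 14 healthy mice lay between -3.22 and -1.69, with a median of -2.64, and the 8 tumor-bearing mice between -3.94 and -2.97, with a median of -3.33. The 5 lowest tumor-bearing mice were below every healthy mouse and the remaining 3 were within the healthy range. The difference was -0.78 ± 0.21 (SE; fold 0.582, 95% interval 0.431 to 0.786, adjusted p = 0.0460 by limma). In the second assay (Mm00723639_g1) healthy mice lay between -3.49 and -2.11 and tumor-bearing mice between -4.54 and -2.92, with medians of -3.15 and -3.46; the difference was -0.68 ± 0.23 (SE) and did not pass (adjusted p = 0.171).

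The highest 2 healthy values of the first Ltbp4 assay, -1.69 and -2.31, came from healthy replicates 14 and 13, both among the samples with many missing reactions. Without the 3 such samples the difference was -0.52 (adjusted p = 0.276), and Bmp15 was then the only member called, so that the count fell from 2 to 1. The call was also lost with the panel as a fixed block (-0.97, adjusted p = 0.161 by limma) and without panels D and G (-0.97, adjusted p = 0.121). The first Ltbp4 assay passed in 4 of the 16 models that left out 1 day 14 mouse. Within the 4 panel-matched pairs tumor-bearing mice were lower in 4 of 4 by the first assay and in 3 of 4 by the second. The matched differences of the first assay were -0.27 on panel A, -0.43 on B, -1.33 on E and -1.84 on F; panels E and F hold the samples with many missing reactions. In the authors' deposited table, the day 14 fold change is 0.257 for Bmp15, and it is 0.5905 and 0.6271 for the Ltbp4 assays.

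**Figure D2:**
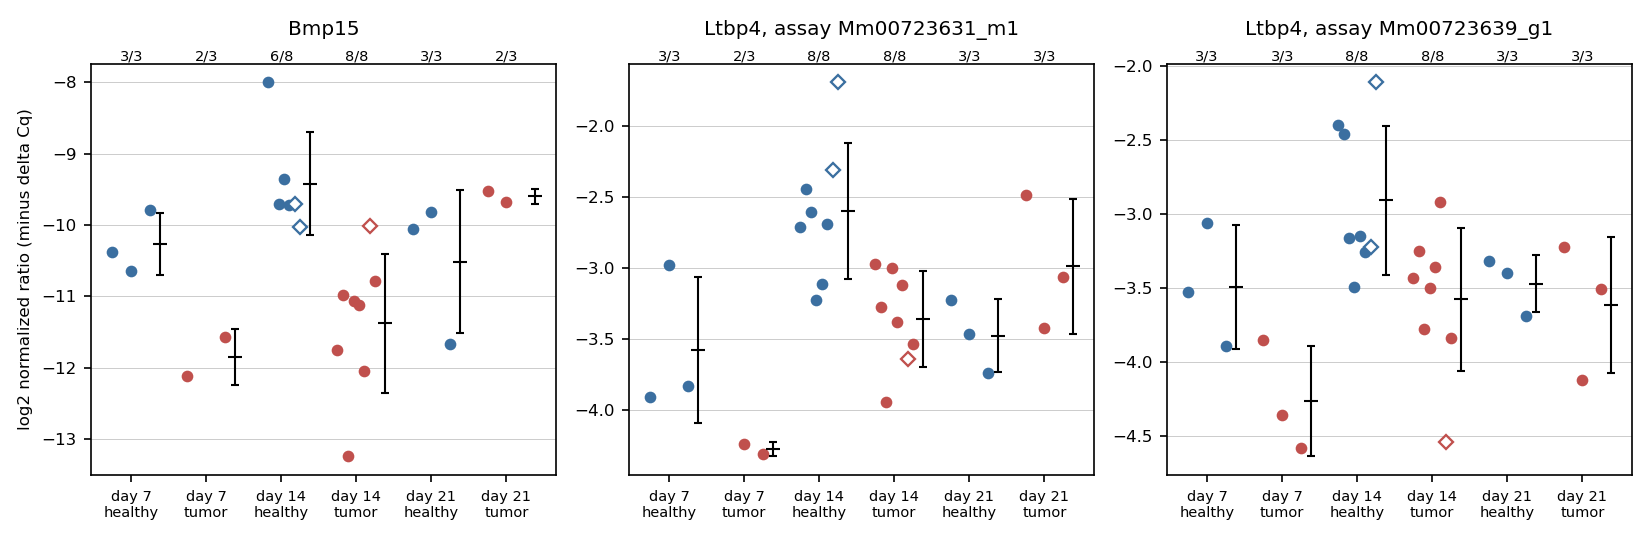
Bmp15 and both Ltbp4 assays in every mouse. The y axis is the log2 normalized ratio, each point is 1 healthy (blue) or tumor-bearing (red) mouse, open diamonds mark the 3 samples with over 100 missing reactions, black bars are the mean ± SD of a group, and the counts over each column give mice with a value out of all mice; on day 14, 7 of 8 tumor-bearing mice lie below all healthy mice for Bmp15.

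Across the BMP and GDF ligands, Bmp15 included, 15 of 17 tested assays had a negative day 14 estimate, with a median over the 17 of -0.41. After Bmp15 the smallest p was that of Bmp7, which encodes a ligand of bone and kidney development. Its assay Mm00432102_m1 lay between -9.48 and -6.66 in 7 healthy mice (median -8.15) and between -11.38 and -8.55 in 7 tumor-bearing mice (median -9.46). The difference of -1.51 ± 0.54 (SE) did not pass (adjusted p = 0.225 by limma). The other Bmp7 assays gave -0.90 ± 0.45 and -0.52 ± 0.69 (SE). By this Bmp7 assay 4 of 7 healthy mice lay above every tumor-bearing mouse, and the other 3 lay within the tumor-bearing range.

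The remaining ligands showed differences within the spread of values in their groups. Bmp6, an iron-regulating BMP, gave -0.63 ± 0.41 and -0.41 ± 0.39 (SE) by its assays, and Bmp3, an atypical ligand that counters other BMPs, gave -0.58 ± 0.37 and -0.22 ± 0.26. Bmp4 gave -0.61 ± 0.50 and Bmp5 -0.62 ± 0.71. The stress-induced ligand Gdf15 (0.05 ± 0.25) and the developmental ligand Gdf6 (0.04 ± 0.41) had the only positive estimates. The lowest adjusted p among the 15 ligand assays other than Bmp15 and Bmp7 Mm00432102_m1 was that of Bmp7 Mm00432105_m1, at 0.5 by limma.

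The TGF-beta ligands did not differ beyond their spread on day 14. Tgfb1, the main isoform of immune cells and platelets, lay between -0.13 and 1.22 in healthy mice and between 0.20 and 0.74 in tumor-bearing mice, with medians of 0.32 and 0.41. The difference was -0.02 ± 0.17 (SE; fold 0.988, 95% interval 0.780 to 1.25), and its sign turned positive when the Cq values were centred on the sample median (0.10). Tgfb2, another isoform, gave -0.01 ± 0.17 (fold 0.996, 95% interval 0.778 to 1.27).

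Among the receptors, the smallest day 14 p was that of Acvr2b, a type II receptor for activins and GDFs. Healthy mice lay between -7.24 and -5.75 (median -6.32) and tumor-bearing mice between -9.28 and -6.57 (median -6.96). Only 2 of 8 tumor-bearing mice were below every healthy mouse, and the difference of -0.82 ± 0.30 (SE) did not pass (adjusted p = 0.225 by limma). Tumor-bearing replicate 15, at -9.28, was well below the next mouse at -7.46, and the estimates that left out 1 mouse ran from -0.94 to -0.55. The activin type I receptor Acvr1 gave -0.01 ± 0.13, the endothelial receptor Acvrl1, which binds BMP9 and BMP10, gave -0.22 ± 0.12, and the BMP receptor Bmpr1b gave 0.23 ± 0.31 (SE). Tgfbr1, the TGF-beta type I receptor, gave 0.33 ± 0.18 and 0.02 ± 0.15 by its assays.

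The activin and inhibin subunits, Grem1 and Bmp1 stayed within their spread on day 14. Inhba, the subunit of activin A, ranged from -5.19 to -2.24 without and from -4.75 to -3.18 with tumor, a difference of 0.20 ± 0.33 (SE). Inhbb gave 0.07 ± 0.16 and Inha -0.16 ± 0.38. Grem1 gave 0.07 ± 0.42, and the protease Bmp1, which had the smallest p of its group, gave -0.22 ± 0.13 with an adjusted p of 0.585 by limma. Bmp1 ranged from -1.56 to -0.93 in 6 healthy mice and from -1.68 to -1.30 in 7 tumor-bearing mice.

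Over all 33 members the median day 14 difference was -0.22, and 24 of 33 (72.7%) were negative; over all assays the median was -0.08 and 62.6% were negative. Centring Cq on the sample median moved the median of all assays to 0.03, a shift of over 0.1, and that of the members to -0.11, with 21 negative. On the same day, all 9 assays for 8 neutrophil genes of a marker list were called higher with tumor, with a median of 2.17, and their summed linear level ran from 0.432 to 2.17 without and from 1.21 to 9.92 with tumor. The 8 adipocyte marker assays were all lower without any call (median -0.55; summed level 6.72 to 58.1 against 6.32 to 14.0), as were 5 of 5 T cell markers (median -0.72; 0.0304 to 0.0760 against 0.0297 to 0.0540). The 4 macrophage and monocyte markers had a median of 0.17 with no call (3.49 to 5.92 against 3.03 to 6.57). The 2 epithelial markers were lower without a call (median -2.04; 0.00508 to 0.155 against 0.00431 to 0.0162), Krt8 by -3.64 ± 1.25 and Muc1 by -0.44 ± 0.29 (SE). The 2 platelet markers were lower without a call (median -1.16; 0.0497 to 257 against 0.0499 to 0.0877, with group medians of 0.0868 and 0.0660), the level of 257 being that of healthy replicate 13, and the differences were -2.23 ± 1.25 for Ppbp and -0.09 ± 0.22 (SE) for Selp. The part of any of these cell types in the member differences was not tested. Fibroblasts were represented by Fn1 alone, endothelium by Sele and epithelium by these 2 genes, so the stromal and epithelial content named in the labels could not be checked further.

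**Figure D3:**
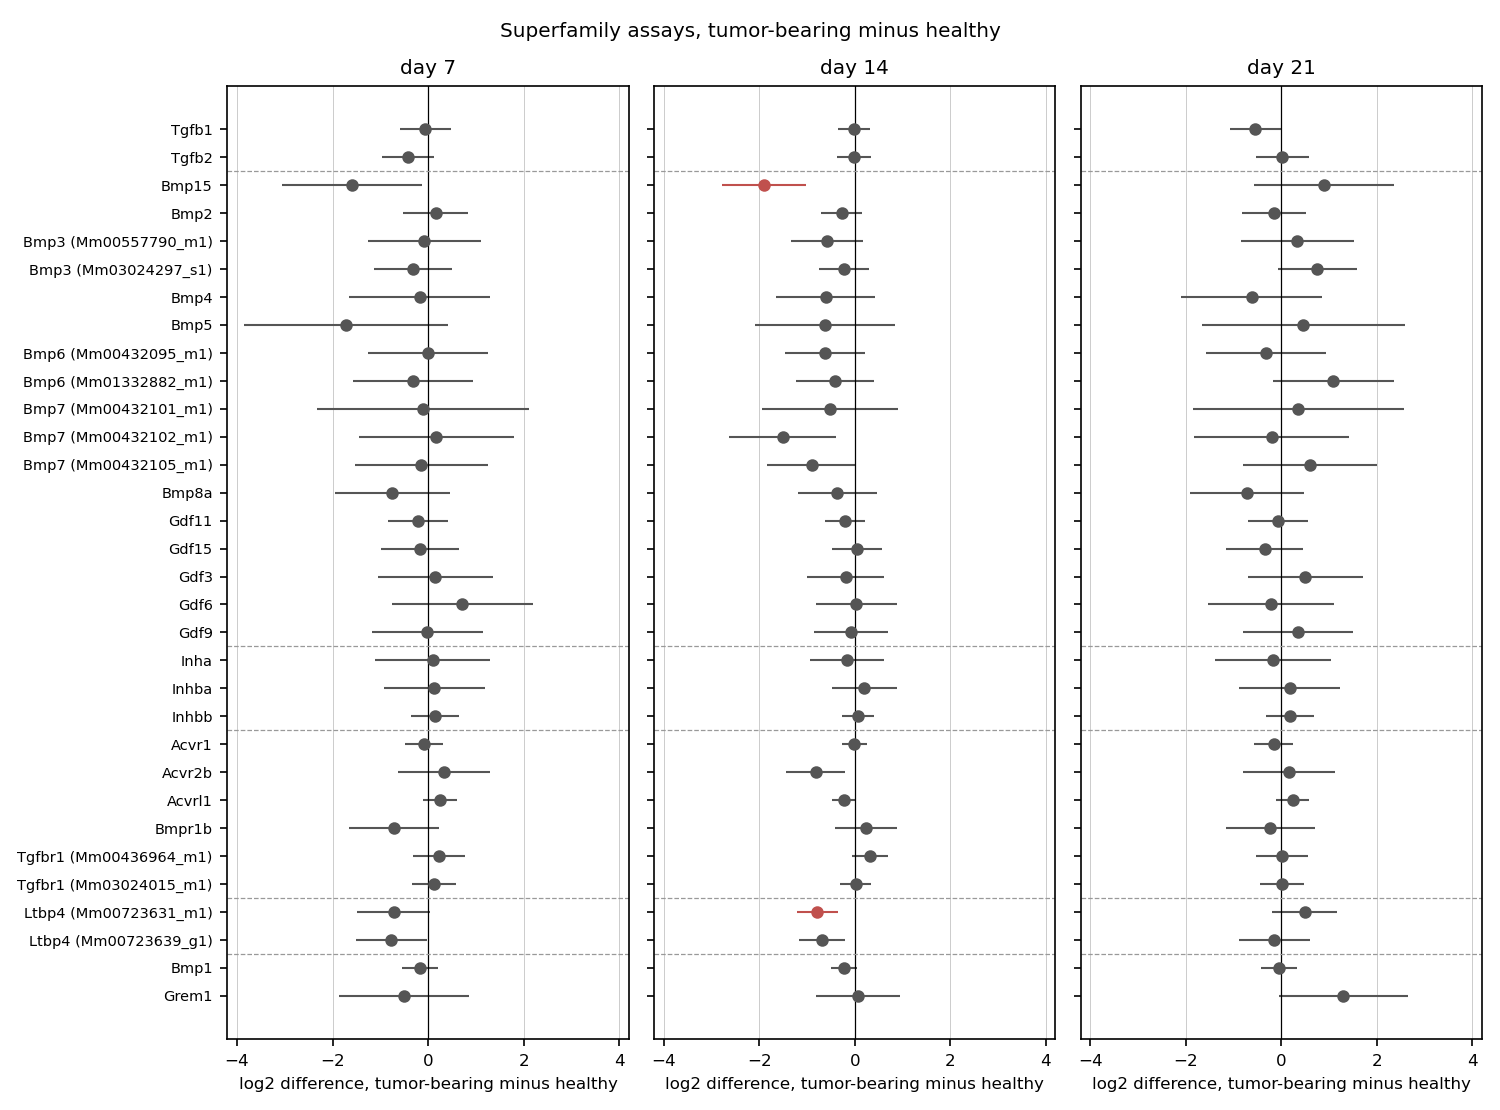
Tumor-bearing minus healthy differences of the superfamily assays named here at each day. The x axis is the log2 difference with its 95% interval from limma, dashed lines separate ligands, subunits, receptors, latency proteins and other members, and red marks the adjusted p under 0.05; Bmp15 and 1 Ltbp4 assay are red on day 14 and no member is on day 7 or day 21.

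On day 7, with 3 mice per group, 0 of 33 members passed by limma (0 of 565 assays, 0%), and 2 of 33 had an unadjusted p under 0.05 against 2.12% of all assays. The smallest p values belonged to the genes called on day 14. Bmp15 was -10.38, -10.64 and -9.79 in the healthy mice and -12.12 and -11.57 in the 2 tumor-bearing mice with a value, a difference of -1.59 ± 0.70 (SE, adjusted p = 0.997). The first Ltbp4 assay read -3.91, -2.98 and -3.83 in healthy mice and -4.24 and -4.31 in the 2 tumor-bearing mice with a value (-0.72 ± 0.37, SE). Its second assay read -3.53, -3.06 and -3.89 against -3.85, -4.36 and -4.58 (-0.77 ± 0.36, SE). Every tumor-bearing value was below every healthy value for Bmp15 and the first Ltbp4 assay, while the second overlapped by 1 mouse.

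In all, 6 of 33 members had every tumor-bearing value below every healthy one on day 7, against 4.25% of the 565 assays, and 0 of 33 had the opposite, against 4.96%. The 6 were Acvr1, Bmp1, Bmp15, Bmp5, Ltbp4 Mm00723631_m1 and Tgfb2. The separation was small for Acvr1 (-0.08) and Bmp1 (-0.17). Tgfb2 read -4.12, -4.11 and -4.25 in healthy mice and -4.70, -4.63 and -4.41 with tumor (-0.42 ± 0.27, SE), and Bmp5, a skeletal BMP, read -9.03, -8.90 and -8.88 against -10.97, -9.43 and -11.58 (-1.72 ± 1.03, SE). None of these had an adjusted p below 0.997.

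On day 21, again with 3 mice per group, 0 of 33 members passed (7 of 573 assays, 1.22%), and 2 of 33 had an unadjusted p under 0.05 against 9.08% of all assays. 1 of these was Tgfb1. Tgfb1 read 0.87, 0.29 and 0.07 in healthy mice and -0.48, -0.06 and 0.14 with tumor, overlapping by 1 mouse (-0.54 ± 0.26, SE, adjusted p = 0.533 by limma). The antagonist Grem1 read -7.05, -5.58 and -7.10 against -5.36, -4.72 and -5.75 (1.30 ± 0.66, SE, adjusted p = 0.620). Tumor-bearing mice did not overlap healthy ones from above in 4 of 33 members (among them Acvrl1, Bmp15 and Bmp3 Mm03024297_s1), against 10.3% of all assays, and from below in 0 of 33, against 8.03%.

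Bmp15 and the first Ltbp4 assay had the opposite sign on day 21. Bmp15 read -10.06, -9.82 and -11.66 in healthy mice and -9.52 and -9.67 in the 2 tumor-bearing mice with a value (0.90 ± 0.70, SE). Ltbp4 Mm00723631_m1 read -3.22, -3.46 and -3.74 against -2.48, -3.42 and -3.06 (0.49 ± 0.33, SE), while its second assay gave -0.15 ± 0.36. The change of the tumor effect from day 14 to day 21 was 2.80 ± 0.82 (SE) for Bmp15 and 1.27 ± 0.39 (SE) for Ltbp4, and neither passed (adjusted p = 0.478 each by limma; 0 of 571 assays, 0%; 3 of 33 members had an unadjusted p under 0.05 against 5.43% of all assays). The effect did not change past the threshold between days 7 and 14 or days 7 and 21 either, with 0 of 33 members each (0% of all assays each; unadjusted 2 of 33 each, against 3.72% and 3.93%). Averaged over the 3 days, 0 of 33 members passed (14 of 559 assays, 2.50%; unadjusted 2 of 33 against 8.77%); the second Ltbp4 assay had the smallest p (-0.53 ± 0.19, SE, adjusted p = 0.249), then Bmp15 (-0.86 ± 0.36, adjusted p = 0.407).

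Time courses were followed within each condition, each day being different mice. None of the members passed the threshold between days in either condition by limma. In healthy mice 0 of 33 passed from day 7 to 14 (0 of 572 assays, 0%; unadjusted 5 of 33 against 12.9%), 0 of 33 from day 14 to 21 (2 of 578, 0.346%; unadjusted 5 of 33 against 15.9%) and 0 of 33 from day 7 to 21 (0 of 570, 0%; unadjusted 4 of 33 against 10%). In tumor-bearing mice the counts were 0 of 33 for each interval, against 0.175%, 0% and 0.529% of all assays (unadjusted 3, 3 and 4 of 33, against 8.58%, 10.3% and 8.82%). Mice of the 2 days did not overlap for 2, 2 and 11 of 33 members over the same intervals in the healthy, against 4.37%, 6.06% and 26.8% of all assays, and for 2, 2 and 6 of 33 in the tumor-bearing, against 4.2%, 5.15% and 16.4%.

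Tgfbr1 was higher at later days in both conditions and by both assays, though no estimate passed. By assay Mm03024015_m1, healthy mice read -0.33, -0.22 and -0.29 on day 7, -0.11 to 0.92 (median 0.15, 7 mice) on day 14 and 0.50, 0.55 and 0.52 on day 21. Tumor-bearing mice read 0.03, -0.15 and -0.33, then -0.05 to 0.65 (median 0.36, 7 mice), then 0.69, 0.40 and 0.52. Every day 21 mouse was above every day 7 mouse of its condition, though of the panels only C holds mice of both days. The difference from day 7 to 21 was 0.79 ± 0.23 (SE, adjusted p = 0.211 by limma) in healthy and 0.68 ± 0.23 (SE, adjusted p = 0.227) in tumor-bearing mice. The second assay gave 0.61 and 0.39, also without overlap. 

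The first Ltbp4 assay was followed over time in the same way. In healthy mice the medians were -3.83, -2.64 and -3.46 on days 7, 14 and 21, a difference of 0.97 ± 0.28 (SE, adjusted p = 0.222) up to day 14 and of -0.90 ± 0.28 (SE, adjusted p = 0.102) after it. In tumor-bearing mice they were -4.28 (2 values), -3.33 and -3.06. The difference was 0.91 ± 0.32 (SE, adjusted p = 0.310 by limma) up to day 14 and 1.29 ± 0.37 (SE, adjusted p = 0.154) from day 7 to day 21. The test of the difference between these courses is the change of effect given above, which did not pass. Smaller differences came from the second Ltbp4 assay, without a call. They were 0.58 and -0.53 over the same healthy intervals, and 0.68 over each of the tumor-bearing intervals.

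Other members with the smallest p values over time were Acvr2b, Acvrl1, Grem1, Tgfb2, Gdf3, Tgfb1 and Bmp15. Acvr2b in healthy mice read -7.84, -7.74 and -7.33 on day 7 and -7.24 to -5.75 on day 14, without overlap (1.26 ± 0.40, SE, adjusted p = 0.222 by limma). Without panels D and G, the difference was 1.20 and passed (adjusted p = 0.0303 by limma), as did 2 of 570 assays. It also passed without tumor-bearing replicate 15, a mouse outside this comparison (1.26, adjusted p = 0.0269 by limma). No member passed here with the panel as a fixed block. Healthy Acvrl1 went from -1.16 to -0.71 (7 mice) on day 14 to -1.20, -1.31 and -1.38 on day 21, without overlap (-0.39 ± 0.15, SE, adjusted p = 0.184). From day 7 to day 21 in healthy mice, Grem1 differed by -1.67 ± 0.67 and Tgfb2 by -0.69 ± 0.27 (SE), both without overlap (adjusted p = 0.340 and 0.330).

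In tumor-bearing mice from day 14 to day 21, Gdf3, a ligand of the embryo that macrophages also make, went from -4.78 to -3.11 in 7 mice to -0.20, -3.84 and -2.76 (1.43 ± 0.51, SE, adjusted p = 0.289 by limma). The day 21 mice overlapped the day 14 range in replicate 27 alone, and replicate 26, at -0.20, was the highest. The difference rested on single mice: it was 2.25 and passed without replicate 27 (adjusted p = 0.0406 by limma), and it was 0.42 without replicate 26 (adjusted p = 0.976). Tgfb1 went from 0.20 to 0.74 on day 14 to -0.48, -0.06 and 0.14 on day 21, without overlap (-0.57 ± 0.22, SE, adjusted p = 0.289). Bmp15 had the largest difference in size, 1.70 ± 0.62 (SE, adjusted p = 0.289) from day 14 and 2.18 ± 0.78 (SE, adjusted p = 0.335) from day 7, on 2 values on day 21.

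Most members had a lower estimate in healthy scaffolds on day 21 than on day 14, although 0 of 33 passed by limma, as given above. The estimate was negative for 29 of 33 members, with a median of -0.39, while 52.2% of all assays were negative, with a median of -0.02. The 4 positive ones were Gdf3, both Tgfbr1 assays and Bmp7 Mm00432101_m1. Grem1 and Bmp1, 3 of 3 activin and inhibin subunits, both TGF-beta ligands, both Ltbp4 assays, 15 of 17 BMP and GDF ligand assays and 4 of 6 receptor assays were negative. In tumor-bearing mice 16 of 33 were negative over the same interval, with a median of 0.00, against 40.8% and 0.07 over all assays. Between day 7 and day 14 healthy members had a median of 0.11 and all assays one of 0.09.

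Per mouse, the median deviation of the members from their own mean over all samples was -0.228, -0.187 and 0.046 in the day 21 healthy mice and from -0.175 to 0.443 on day 14, with a median of 0.094, so that the days overlapped by the mouse at 0.046. It was above 0 in 6 of 8 day 14 healthy mice, the highest being healthy replicate 8 at 0.443 and replicate 11 at 0.276, and the lowest replicate 13 at -0.175. The same median over all assays tested was 0.157 in replicate 8, -0.048 in replicate 11 and -0.149 in replicate 13, and from -0.065 to 0.095 in the day 21 healthy mice. The count of negative members in healthy mice after day 14 was 29 without the 3 samples with many missing reactions, 28 without panels D and G, 29 with Cq centred on the sample median, and 25 both with the panel as a fixed block and with Cq centred on the listed housekeeping genes. It was 23 of 37 where reactions lacking a Cq took the largest Cq and Cq was centred on the sample median, with a median difference of -0.18. Members share samples and panels, and their count carries no test.

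**Figure D4:**
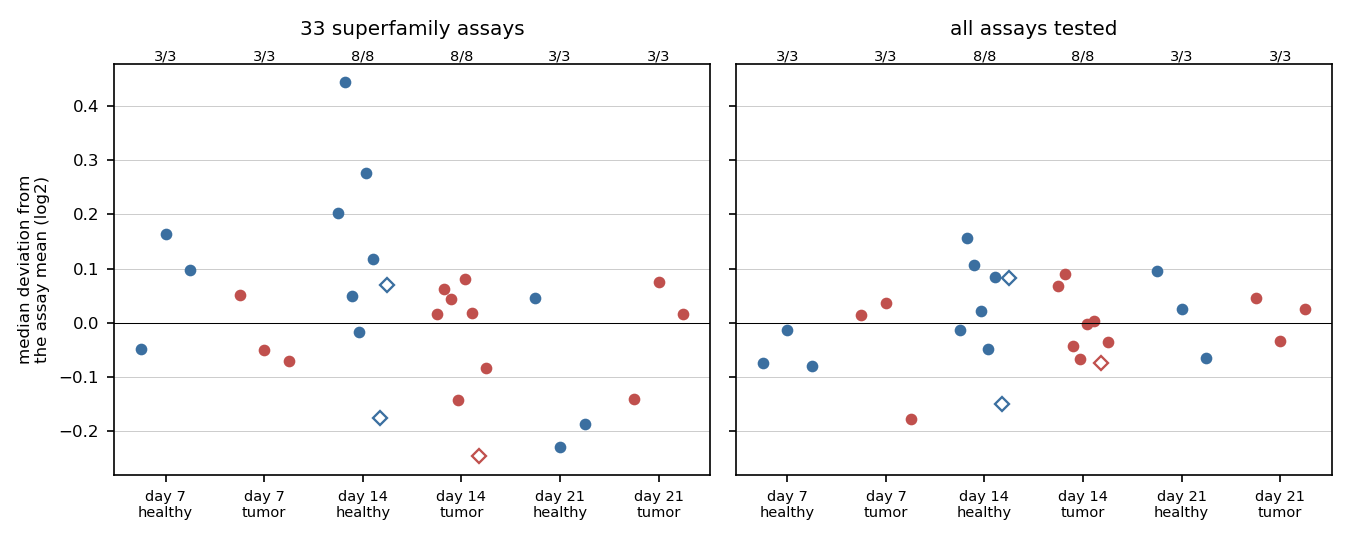
Median deviation from the assay mean in each mouse, for the 33 superfamily assays (left) and all assays tested (right). The y axis is in log2 units, each point is 1 healthy (blue) or tumor-bearing (red) mouse, open diamonds mark the 3 samples with over 100 missing reactions, and 2 of 3 day 21 healthy mice lie at -0.228 and -0.187 for the superfamily.

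Genes with several assays show how well a single value holds. The Tgfbr1 assays differed by a nearly constant offset, with an SD of the difference of 0.20 over 25 mice, and 25 of 25 differences lay within 0.5 of their median. For Ltbp4 the SD was 0.36 over 27 mice, with 23 within 0.5. It was 0.76 for Bmp3 (28 mice), 0.89 for Bmp6 (27 mice) and 0.81 to 1.20 among the 3 Bmp7 assays, with 9 to 14 of 26 or 27 mice within 0.5. Single mice had wide gaps: tumor-bearing replicate 15 read -8.36 by one Bmp3 assay and -5.16 by the other, and healthy replicate 8 read -4.91 by Bmp6 Mm00432095_m1 and -6.75 by Mm01332882_m1. Tumor-bearing replicate 26, a day 21 mouse, had the widest Bmp6 gap, with -8.95 by the first and -6.30 by the second. On day 21 the Bmp6 assays gave tumor-bearing minus healthy estimates of opposite sign, -0.33 ± 0.61 by the first and 1.09 ± 0.61 (SE) by the second, and neither passed.

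**Figure D5:**
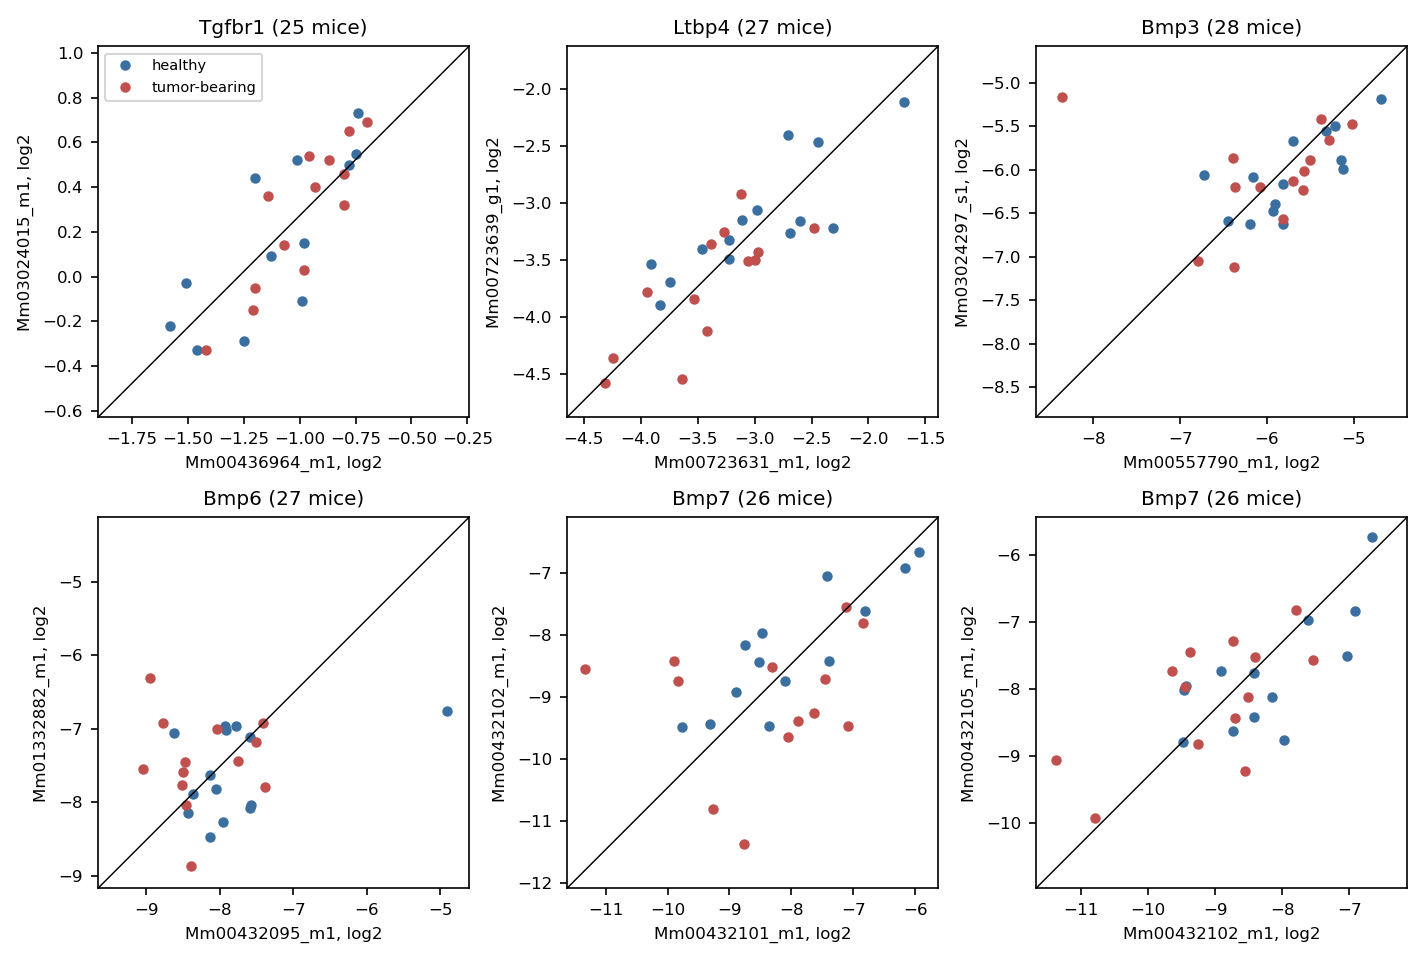
Paired assays of the same gene. Each axis is the log2 normalized ratio by 1 assay, each point 1 healthy (blue) or tumor-bearing (red) mouse with a value in both, and the line has slope 1 with the mean offset; points stay close to it for Tgfbr1 and Ltbp4 (SD of the difference 0.20 and 0.36) and scatter for Bmp6 and Bmp7 (0.89 and up to 1.20).

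Beyond the members the panel holds little of the pathway. Of 62 genes on a list of Smads and transducers, co-receptors and other ligands, extracellular regulators and known targets, 8 were on the panel and none of the 14 Smads and transducers was among them. On day 14, 0 of the 7 tested passed in either direction. The myostatin gene Mstn gave -2.81 ± 1.91 and Lefty2, a Nodal antagonist, 0.51 ± 0.66. These were the only 2 of the 5 assays for co-receptors and other ligands with enough values to test. Itgb6, a subunit of an integrin that activates latent TGF-beta, gave -2.89 ± 0.996 (SE, adjusted p = 0.225 by limma). It was sparsely detected. With a missing Cq counted as 0, its linear level had a median of 0.00265 (highest 0.00999) in healthy mice. In tumor-bearing mice the median was 0 (highest 0.000525), so most of them had no Cq. Among known targets, Foxp3, the regulatory T cell factor, gave -1.07 ± 0.40 (SE, adjusted p = 0.243), and Vegfa, Fn1 and Cdkn1a gave -0.12 ± 0.28, -0.03 ± 0.14 and 0.05 ± 0.15.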

How the data were processed

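Total RNA of the homogenized scaffolds was treated with DNase, reverse transcribed and amplified on OpenArray panels in a QuantStudio 12K Flex instrument, per the labels; nothing beyond the mouse number marks replicates, and p-values measure the spread between these mice. The authors deposited raw Cq values and normalized values, which are linear ratios, per the file headers; their fold changes carry no error. Which software set the Cq values is not given in the sources used here. The deposited ratios equal 2 to the power of minus delta Cq, where the reference is the mean Cq of 5 of the 16 assays marked as reference, recovered in every sample to within 3.0e-05 cycles. Of 18144 reactions, 2244 had no Cq: panels A and B mark these as undetermined (581) and the other panels leave them blank (1663).

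Tests used log2 of the ratios in limma 3.58.1 (R 4.3.3, statmod 1.5.0), with 1 mean per group over 28 samples, the panel as a random block (estimated correlation 0.0535), missing reactions left out, and Benjamini-Hochberg adjustment within a contrast over all assays tested. An assay was tested with 50% detection in at least 1 group and at least 2 values in each group compared. Alternatives changed the block, the panels, the centring of Cq (sample median, or 11 assays of listed housekeeping genes), the treatment of missing reactions, the filters and the mice included. Where missing reactions took the largest Cq, Cq was also centred on the sample median in place of the authors' reference. The fits were tested on simulated data. Values are printed for members past the threshold, members with several assays, the smallest p of each role on days 14 and 21, and the 3 smallest p of each contrast; others were added after their values were seen. The members and lists were chosen with earlier results of these data known. The number of mice limits precision; no sequence of the assays was used. Some genes, 1 member among them, are counted but not reported here by name.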

Additional observations from a re-analysis of the deposited data

Results flagged for a closer look

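In groups of 4 to 10 mice, a mouse was set apart where its gap to the nearest other mouse, divided by the range of the group, exceeded Dixon's critical value. This was so for 7 of the 66 member groups tested, where the nominal rate is about 1 in 20. The share over all assays is not given here, so the count cannot show whether such mice are commoner among the members. Only day 14 groups are large enough for this comparison. Tumor-bearing replicate 15 was low for Acvr2b (-9.28, nearest -7.46, ratio 0.672) and for Bmp3 Mm00557790_m1 (-8.36, nearest -6.79, ratio 0.526), and high for Acvrl1 (-0.59, nearest -1.02, ratio 0.624). Healthy replicate 8 was high for Bmp15 (-8.00, nearest -9.36, ratio 0.673) and for Bmp6 Mm00432095_m1 (-4.91, nearest -7.59, ratio 0.722). Healthy replicate 13 was low for Acvr1 (-2.69, nearest -2.11, ratio 0.695), and tumor-bearing replicate 21 was low for Bmp6 Mm01332882_m1 (-10.23, nearest -7.79, ratio 0.738); these are samples with over 100 missing reactions. The other assay of the same gene did not set apart replicate 15 for Bmp3 or replicate 8 for Bmp6; the other Bmp6 assay had no Cq in replicate 21.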

How the results depend on the processing

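Replicate numbers 1 to 28 are unique to a mouse and pair none, whereas the physical panels match healthy with tumor-bearing mice in 3, 4 and 3 pairs on days 7, 14 and 21, so the panel as a fixed block is the blocked analysis. The day 14 count of 2 members became 0 with the panel as a fixed block, without panels D and G, with panels D and G alone, with missing reactions at the largest Cq and with only assays that have a value in all samples (14 members tested, Bmp15 and the first Ltbp4 assay not among them); it was 1 without the 3 samples with over 100 missing reactions, an alternative chosen after seeing the data, and 1 to 2 with 1 mouse left out. Over all assays, day 14 calls were 11 of 581 with the fixed block and 12 of 576 without panels D and G. They were 0 of 572 with panels D and G alone and 5 of 648 with missing reactions at the largest Cq. With complete assays they were 3 of 312, and without the 3 samples 14 of 587. Healthy day 7 to 14 rose from 0 to 1 (Acvr2b) without panels D and G, where 2 of 570 assays passed. It ran from 0 to 1 with 1 mouse left out. Healthy day 14 to 21 rose from 0 to 1 without the 3 samples, where 18 of 578 assays passed against 2 of 578 with them. Tumor-bearing day 14 to 21 ran from 0 to 1 with 1 mouse left out. With panels D and G alone, Bmp15 was -2.91 and the first Ltbp4 assay -0.55; with the fixed block and without D and G, Ltbp4 was -0.97. The setting with missing reactions at the largest Cq also centred Cq on the sample median. In it the sign turned for Bmp15 (day 14 0.594, change of effect from day 14 to 21 -3.35, tumor-bearing day 14 to 21 -2.25) and Tgfbr1 Mm03024015_m1 (day 7 to 14, healthy -2.13, tumor-bearing -2.18). It also turned for healthy day 14 to 21 Acvrl1 (3.37), and on day 14 for Bmp1 (2.96), Bmp7 Mm00432105_m1 (1.26) and Tgfb1 (0.108). Tgfb1 had a Cq in all 28 samples, so none of its values was filled and only their centring was changed. Day 14 signs also turned with D and G alone for Bmp3 Mm03024297_s1 (0.098) and Inhba (-0.328), without D and G for Bmp6 Mm00432095_m1 (0.039), without D and G and with the fixed block for Tgfb1 (0.074) and Tgfbr1 Mm03024015_m1 (-0.164), with median-centred Cq for Tgfb1 (0.101), and without the 3 samples for Inhba (-0.084); with 1 mouse left out Tgfb1 ran from -0.11 to 0.083 and Tgfbr1 Mm03024015_m1 from -0.065 to 0.14. The largest Cq, used as the fill, was 39.7. Median Cq was 19.75 for Bmp1, 19.65 for Acvrl1 and 18.26 for Tgfbr1 Mm03024015_m1. All of these lacked a Cq in healthy replicate 13 and tumor-bearing replicate 21, and Bmp1 also in healthy replicate 14. The cause of the sign turns was not tested. Over the 53 named member results, 1424 estimates with 1 mouse left out kept direction and side of the threshold and 34 did not (21 weaker, 2 stronger, 11 reversed); under the other alternatives 539 did and 8 were weaker, 1 stronger and 18 reversed.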
